A study of Ovis aries and Capra hircus and Bos taurus with 26 samples.

Results

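The peaks described here are the H3K27ac peaks of cattle and goat liver on the autosomes that carry the same number in both species. Cattle and goats each have 29 autosomes, which were paired by number, and the pairs 9 and 14 were left out because a known translocation moved a segment between them. The other 27 pairs held 201718 H3K27ac peaks in 5 libraries, out of 616400 peaks in all 17 peak lists of the study. For each chromosome the share of a library's peaks, the peaks per Mb, their width and strength, their overlap with H3K4me3 and their distribution along the chromosome were compared between the species.

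H3K27ac is the acetylation of lysine 27 of histone H3, which acetyltransferases place on nucleosomes at active promoters and at active enhancers. H3K4me3, the trimethylation of lysine 4 of the same histone, sits mainly at promoters near transcription start sites, so an H3K27ac peak without H3K4me3 is often taken as a candidate enhancer. Cattle and goats have nearly the same set of acrocentric autosomes, and most pairs share long blocks of genes in the same order, so the number and order of liver regulatory elements along a pair can be set side by side. Chromosomes 19, 25 and 18 are among the gene-rich autosomes of cattle, 12 and 24 are gene-poor, 6 carries the albumin and casein genes, and 23 carries the major histocompatibility complex.

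The study profiled both marks by chromatin immunoprecipitation sequencing (ChIP-seq) in livers from cattle, sheep and goats. The cattle were healthy adult Holsteins 3 to 4 years old, and the goats were healthy adult Yunnan black goats 2 to 3 years old. Whole liver frozen in liquid nitrogen was used without any treatment, and H3K27ac was precipitated with the Abcam antibody ab4729 and H3K4me3 with ab85850. H3K27ac peaks came from 2 cattle (B and C) and 3 goats (A, B and C), and H3K4me3 peaks of the same 5 animals served as the second mark. Species, breed, age and genome assembly change together between the groups and cannot be told apart, and in whole tissue a mark held by fewer cells cannot be told apart from a weaker mark in every cell. The peak lists name no genes, so the tissue could not be checked against liver markers. Peak positions were given on ARS-UCD1.2 in cattle and, after the study's methods, on ARS1 in goats.

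The H3K27ac libraries had 36223 and 40121 peaks on the 27 autosomes in cattle, and 38167, 45911 and 41296 in goats. These made up between 90.1% and 92.1% of the peaks of each library. The goat mean was 1.09 times the cattle mean and the groups overlapped (difference 0.13 on the log2 scale, exact permutation test, p = 0.4, smallest possible p = 0.1). The peaks covered 21.9 and 25.5 Mb in cattle and 22.9, 26.7 and 24.8 Mb in goats, which did not differ beyond the spread between animals either (0.07 on the log2 scale, exact permutation test, p = 0.6). Without cattle B the sign of the difference in covered length turned (−0.04). The study's methods subsampled libraries to a common number of reads, but the lists hold no read numbers against which this could be checked, and the precision rests on the number of animals. Within a species, a mean of 71.5% of the peaks of one animal had 50% or more of their bases inside peaks of another animal in cattle, and 71.3% in goats. By chromosome, that share ran from 66.9% on chromosome 6 to 76.4% on chromosome 25 in cattle, and from 67.8% on chromosome 20 to 75.8% on chromosome 25 in goats.

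The first comparison asked whether the peaks were divided among the chromosomes in the same way in both species. Across the 27 pairs, 23 shares differed by less than 0.1 on the log2 scale, and the mean shares of cattle and goat had a Pearson r of 0.99 and a Spearman rho of 0.98 across chromosomes, as a description. The shares hold chromosome length, and the peaks per Mb given further on take it out. A linear model over all pairs (limma, Benjamini-Hochberg adjustment, adjusted p under 0.05) called 8 of 27 shares, or 29.6%, of which 4 were higher and 4 were lower in goats. The species did not overlap on 14 chromosomes, with goats higher on 8 and cattle higher on 6. Shares of a library are not independent, as they add up to the whole, and the model takes its variance over all pairs. Its p-values for shares are therefore likely too small for so few animals. The differences between marks and the bins, given further on, are built from shares and carry the same limit.

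Chromosome 17 stood apart from the other pairs. It held 1216 and 1342 peaks in cattle and 1008, 1238 and 1084 in goats. As a share of the library this was 3.36% and 3.34% in cattle, and 2.64%, 2.70% and 2.62% in goats. All 3 goats lay below both cattle, and the goat share was 0.79 times that of cattle (−0.34 ± 0.03 on the log2 scale (SE), limma, adjusted p = 6.36e-20). The size of this p-value rests on variance taken over all pairs and overstates what so few animals can show. The difference passed the test in each of the 13 alternative settings, between −0.36 and −0.20.

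The shares of chromosomes 23, 28 and 12 were also lower in goats. Chromosome 23 held 3.41% and 3.44% of the peaks in cattle and 3.30%, 3.07% and 3.15% in goats (−0.11 ± 0.03 (SE), limma, adjusted p = 0.00115). Chromosome 28 held 2.11% in both cattle and 1.90%, 1.98% and 2.02% in goats (−0.10 ± 0.03 (SE), limma, adjusted p = 0.00156). In the gene-poor chromosome 12 the shares were 2.46% and 2.45% in cattle and 2.28%, 2.36% and 2.26% in goats (−0.09 ± 0.03 (SE), limma, adjusted p = 0.00365). On each of these chromosomes every goat lay below both cattle. Of the 13 alternative settings, 10 called chromosome 23, 9 called 28 and 10 called 12. Chromosome 28 lost its call without goat A (−0.08, adjusted p = 0.0528), with the letter of the animal as a block (adjusted p = 0.0781) and with a −log10 q of at least 5 (−0.05, adjusted p = 0.318), and its difference turned to 0.0028 with the 20000 strongest peaks of each library. Chromosome 23 was not called with the 20000 strongest peaks (−0.06, adjusted p = 0.063) or a −log10 q of at least 5 (−0.10, adjusted p = 0.072), nor when cut to the goat length, as described with the lengths. Chromosome 12 lost its call without goat A (−0.09, adjusted p = 0.0813) or goat C (−0.08, adjusted p = 0.0568) and with the block (adjusted p = 0.0685).

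The shares of chromosomes 10, 1, 26 and 13 were higher in goats. Chromosome 10 held 4.69% and 4.54% of the peaks in cattle and 4.91%, 5.0% and 4.94% in goats (0.10 ± 0.03 (SE), limma, adjusted p = 0.00156). The longest autosome, chromosome 1, held 4.86% and 4.98% in cattle and 5.15%, 5.28% and 5.19% in goats (0.08 ± 0.03 (SE), limma, adjusted p = 0.0124). Chromosome 13 held 4.07% in both cattle and 4.19%, 4.31% and 4.32% in goats (0.07 ± 0.03 (SE), limma, adjusted p = 0.0281). These 3 chromosomes had no overlap between the species. On chromosome 26 the shares were 2.20% and 2.32% in cattle and 2.43%, 2.31% and 2.41% in goats, so cattle C lay above goat B (0.08 ± 0.03 (SE), limma, adjusted p = 0.0222). All 4 calls rested on single animals, and of the 13 alternative settings 11 called chromosome 10, 6 called 1, 7 called 26 and 3 called 13. That of chromosome 10 was lost without cattle C (0.08, adjusted p = 0.0518) or goat A (0.11, adjusted p = 0.0504). Without cattle B, the adjusted p was 0.176 for chromosome 1, 0.453 for chromosome 26 and 0.128 for chromosome 13. Chromosomes 1 and 26 also lost their calls without goat A (adjusted p = 0.0528 and 0.280) and without goat C (0.0568 and 0.112), while chromosome 13 lost its call without cattle C (0.0786), goat B (0.0769) or goat C (0.145).

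The other chromosomes chosen for their gene content gave smaller differences. The gene-rich chromosome 25 held 3.35% and 3.18% of the peaks in cattle and 3.15%, 3.03% and 3.17% in goats, and its difference missed the threshold (−0.07 ± 0.03 (SE), limma, adjusted p = 0.0501). It passed in 7 of the 13 alternative settings, which gave values between −0.12 and −0.03, among them without cattle C (−0.10, adjusted p = 0.00951). The gene-rich chromosome 19 held 5.39% and 5.14% in cattle and 5.37%, 5.23% and 5.31% in goats, a difference of 0.01 whose sign turned in 4 of 13 alternative settings. The differences were 0.03 on chromosome 6 and −0.03 on the gene-poor chromosome 24, neither of which passed the test (adjusted p = 0.477 and 0.460).

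**Figure D1:**
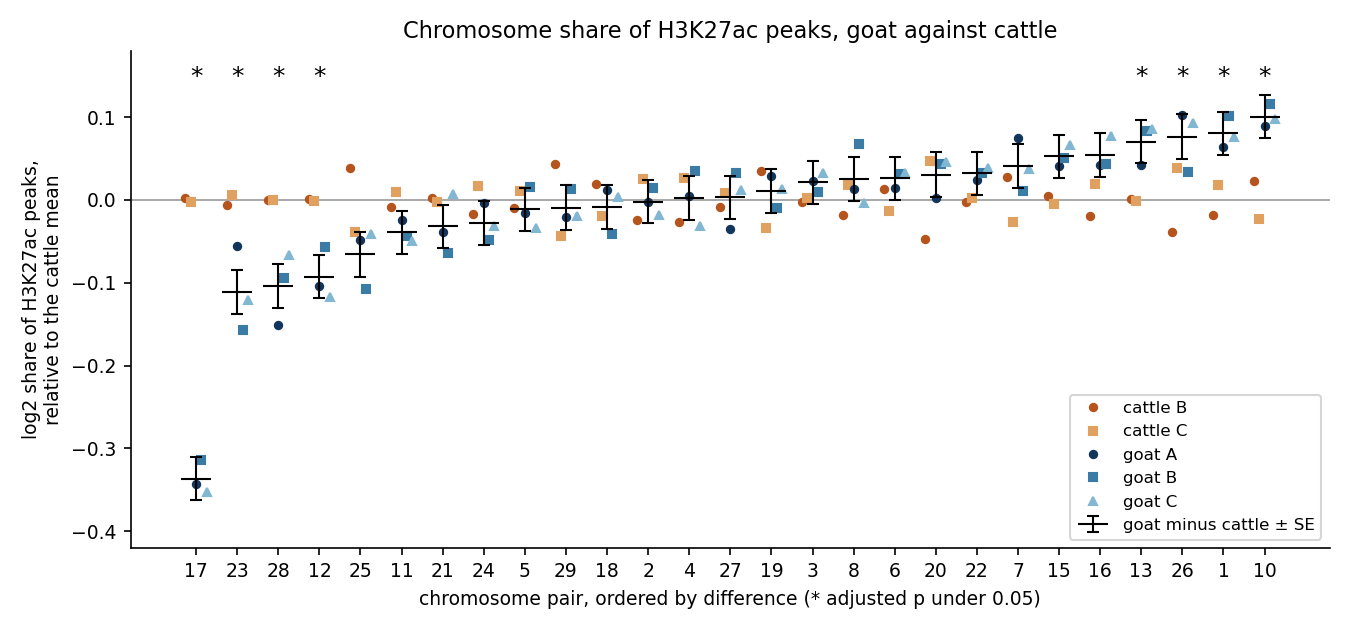
The share of H3K27ac peaks on each of the 27 chromosome pairs, on the log2 scale relative to the cattle mean, for each library (symbols), with the difference goat minus cattle and its SE (black bars). The pairs are ordered by the difference, from −0.34 on chromosome 17 to 0.10 on chromosome 10, and stars mark the 8 pairs called by limma.

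The chromosomes of a pair were not of the same length in the lists, where length was taken as the end of the last peak of either mark in the species. The last peak of chromosome 17 ended at 73.1 Mb in cattle and at 70.7 Mb in goats, and that of chromosome 23 at 52.5 and 48.9 Mb. When chromosome 17 was read from the cattle start in windows of 1 Mb, with the goat sequence turned round, the windows of both species followed each other (r = 0.85, n = 70 windows, as a description), whereas aligned at the cattle end they gave r = 0.43. The part of cattle chromosome 17 beyond 70.7 Mb held 132 and 142 peaks, which were 10.9% and 10.6% of the chromosome. Within the first 70.7 Mb the density was 15.3 and 17 peaks per Mb in cattle and 14.3, 17.5 and 15.3 in goats, so the species overlapped. With every pair cut to the shorter length from the cattle start, the share of chromosome 17 was still lower in goats (−0.20, limma, adjusted p = 9.7e-10).

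On chromosome 23, 120 and 136 peaks of cattle, or 9.72% and 9.86%, lay beyond the length of the goat chromosome. Cut to that length from the cattle start, the difference in share was 0.01 (limma, adjusted p = 0.904), and cut from the cattle end it was −0.09 (limma, adjusted p = 0.00759). In windows of 1 Mb the species gave r = 0.40 on this chromosome aligned at the cattle start and r = −0.09 aligned at the cattle end (n = 48 windows, as a description), so the windows did not follow each other in the alignment that kept the call. Outside the 29 autosomes the goat H3K27ac libraries had 1826 to 2107 peaks and the cattle libraries 944 to 1059; the part of these peaks in the differences on chromosomes 17 and 23 was not tested.

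The second comparison took out chromosome length and asked how densely peaks were placed. The order of the chromosomes was nearly the same in both species (r = 0.98 and rho = 0.95 between the means, n = 27 chromosomes, as a description). Chromosome 19 was the densest, with 30.8 and 32.5 peaks per Mb in cattle and 32.8, 38.4 and 35.1 in goats. It was followed in both species by chromosomes 25, 18 and 23, with means of 29.4, 27.3 and 24.9 peaks per Mb in cattle and 30.4, 29 and 27.1 in goats. The 2 cattle and the 3 goats each had all their values for chromosome 19 above all those for 25, whereas the values of 25 and 18 overlapped between goats (28.1 to 32.5 and 26.9 to 31.2). Within a library chromosome 19 was above 25, and 25 above 18, in each of the 5 libraries. The lowest mean in both species was that of chromosome 12, with 10.2 and 11.3 peaks per Mb in cattle and 10, 12.5 and 10.8 in goats. In 4 of the 5 libraries it was the sparsest, and in cattle C chromosome 6 lay just below it (11.26 against 11.29). Chromosomes 6 and 20 were the next, with means of 10.8 and 11.5 in cattle and 12.1 and 12.9 in goats. Chromosome 6 was therefore among the sparsest autosomes although it carries the albumin gene, which hepatocytes express strongly. The gene-poor chromosome 24 had a mean of 13.4 peaks per Mb in cattle and 14.3 in goats. From the densest to the sparsest chromosome the mean fell 2.94-fold in cattle and 3.19-fold in goats.

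Goat means were higher than cattle means on 26 of 27 chromosomes, with a median difference of 0.16 on the log2 scale, but no chromosome was called (0 of 27, 0%, limma; 1 at an unadjusted p under 0.05). The median difference was 0.07 without cattle B and 0.07 without goat B, and without goat A 13 chromosomes had an unadjusted p under 0.05, with 0 called. This measure holds the difference in the total number of peaks, and the chromosomes of a library moved together, as the plot of peaks per Mb shows. Chromosome 17 was the only one with a lower goat mean, at 16.6 and 18.3 peaks per Mb in cattle and 14.3, 17.5 and 15.3 in goats (−0.16 ± 0.12 (SE)). The smallest goat excess was found on chromosomes 12 (0.04), 25 (0.05) and 28 (0.07), and leaving out single animals turned its sign on each of them. The largest were on chromosomes 10 (0.26), 15 (0.23), 26 (0.22) and 1 (0.22), and on 10, 15 and 26 all goats lay above both cattle. With the 20000 strongest peaks of each library, which removes the difference in number, 8 chromosomes were called, 5 higher and 3 lower in goats. Among them chromosomes 17 (−0.29), 12 (−0.16) and 25 (−0.10) were lower and chromosomes 10 (0.16), 26 (0.11) and 15 (0.07) were higher.

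**Figure D2:**
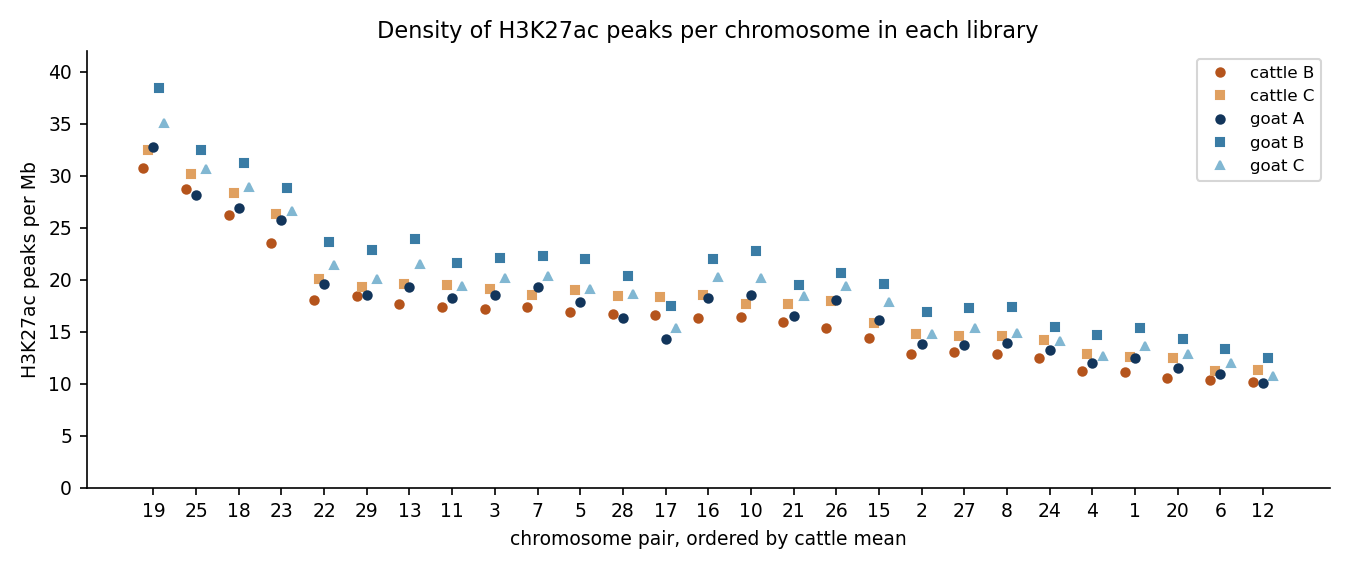
H3K27ac peaks per Mb on each of the 27 chromosome pairs, ordered by the cattle mean, with 1 symbol per library. Chromosomes 19, 25, 18 and 23 were the densest and 12, 6 and 20 the sparsest in both species, and goat B lay highest on 26 of the 27 pairs, the exception being chromosome 17.

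The third comparison asked whether peaks lay at the same places along a pair. Each chromosome was divided into 20 bins of 5% of its length, and the direction of the goat chromosome was set from the H3K4me3 peaks, which the H3K27ac comparison did not use. By H3K4me3, 12 goat chromosomes (2, 3, 4, 7, 10, 12, 15, 17, 23, 26, 27 and 28) ran opposite to the cattle chromosome in the deposited numbering and 15 ran the same way. The H3K27ac profile chose the same direction on 27 of 27 pairs. The marks are not independent here, because many H3K27ac peaks overlap an H3K4me3 peak of the same animal. In that direction the profiles of cattle and goat had a median r of 0.92 over the bins, from 0.61 on chromosome 23 to 0.98 on chromosome 19, and 18 pairs were above 0.9. In the other direction the median was −0.21 and the highest value 0.45, on chromosome 3.

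The cattle profile was also compared with each of the 27 goat chromosomes in the better of both directions, and the goat chromosome of the same number gave the highest r on 27 of 27 pairs. The closest other match was cattle chromosome 29 with goat chromosome 7 (r = 0.84, against 0.95 with its own number). Chromosomes 19 (0.98), 11 (0.97) and 22 (0.97) were most alike between the species, and chromosomes 23 (0.61), 10 (0.79) and 13 (0.84) least. Animals of the same species gave an r of at least 0.965 on every chromosome, and on 27 of 27 pairs the species were less alike than any 2 animals of a species. The r values share the libraries and the bins and are given as a description.

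**Figure D3:**
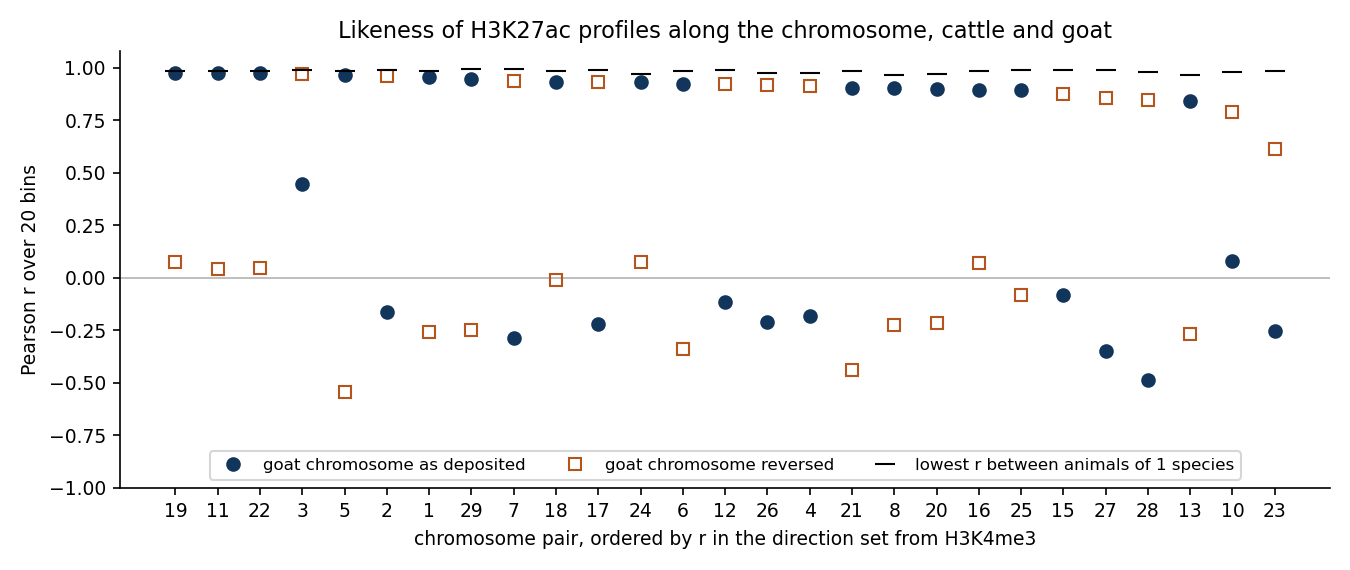
Pearson r over 20 bins between the mean H3K27ac profiles of cattle and goat for each chromosome pair, with the goat chromosome as deposited (filled circles) and reversed (open squares), and the lowest r between animals of 1 species (bars). The 12 reversed pairs reach their high value as open squares, chromosome 23 has the lowest at 0.61, and every pair stays below the bars.

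Bins were then tested one by one, on the share of a chromosome's peaks that lie in the bin. With a mean of at least 5 peaks, 521 of 540 bins entered the test, and 238 (45.7%) were called, 124 with a higher and 114 with a lower share in goats (limma). Most differences were small, and 36 of the called bins (15.1%) changed by at least 1 on the log2 scale. In 10 of the 521 bins the mean of 1 species was under 5, so they entered only through the species where they are high. All 10 were called, 9 of them with a change of at least 1, and those named are given as counts with no test. Of the other 511 bins 228 were called, 27 with a change of at least 1. Over all 521 bins the large changes were most frequent on chromosomes 23 and 27, with 5 each. On both chromosomes this count includes at least 1 bin that entered only through 1 species, so it is given as a description. By chromosome, the share of bins called ran from 15% on chromosome 19 to 70% on chromosome 23. Leaving out cattle B or cattle C lowered the count to 145 bins each, whereas without single goats it stayed between 182 and 201.

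The 5 called bins with a higher share in goats and the smallest p lay on chromosomes 29, 27, 28 and 18. The first 2 of them entered the test only through the goats, and their values are a description. At 65% to 70% of chromosome 29 (chr29:33205792-35760082 in cattle, chr29:33363622-35930054 in goats) the cattle libraries had 1 peak each and the goats 21, 29 and 23. The bin after it went the other way, with 39 and 36 peaks in cattle and 17, 21 and 24 in goats. The last 5% of chromosome 27 in the cattle direction held 0 peaks in both cattle and 13 in each goat, which puts goat peaks at chr27:1-2219797, the start of the goat sequence.

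The third bin by p lay at 10% to 15% of chromosome 28 (chr28:4593191-6889784 in cattle), with 6 and 8 peaks in cattle and 42, 48 and 42 in goats (2.55 ± 0.10 on the log2 scale (SE), limma, adjusted p = 1.36e-05). At 40% to 45% of chromosome 18 (chr18:26323566-29614011) cattle had 8 and 11 peaks and goats 54, 62 and 55 (2.42 ± 0.11 (SE), adjusted p = 2.19e-05). At 25% to 30% of chromosome 27 the cattle libraries had 9 peaks each and the goats 27, 34 and 29 (1.55 ± 0.08 (SE), adjusted p = 3.28e-05). In each of these bins all goats lay above both cattle by more than the spread between animals.

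Among the called bins with a lower share in goats, that with the smallest p lay close by on chromosome 27. At 35% to 40% of it (chr27:15820456-18080520 in cattle) there were 38 and 43 peaks in cattle and 6, 9 and 7 in goats (−2.53 ± 0.08 (SE), limma, adjusted p = 8.02e-06), and at 55% to 60% there were 64 and 81 against 33, 42 and 39 (−1.05 ± 0.08 (SE), adjusted p = 0.000289). The bin between the first of these and the gain on the same chromosome, at 30% to 35%, was the densest of the 3 in both species, with 77 and 86 peaks in cattle and 100, 127 and 111 in goats.

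Chromosomes 23, 10 and 25 gave the other 3 by p. At 45% to 50% of chromosome 23 (chr23:23622639-26247376 in cattle) cattle had 59 and 67 peaks and goats 8, 10 and 7 (−2.87 ± 0.11 (SE), limma, adjusted p = 1.36e-05). 4 bins on, at 65% to 70%, the same chromosome had 20 and 17 peaks in cattle and 99, 102 and 95 in goats (2.37 on the log2 scale, adjusted p = 3.83e-05), a bin picked out after its values were seen. On chromosome 10 the gains and losses alternated between 20% and 40% of the length. Its bin at 25% to 30% held 77 peaks in both cattle and 30, 36 and 33 in goats (−1.44 ± 0.07 (SE), adjusted p = 2.86e-05). The bins on either side went up, from 100 and 104 to 162, 184 and 169 before it, and from 55 and 62 to 117, 134 and 115 after it, and the next one went down again, from 71 and 69 to 34, 38 and 31. At 80% to 85% of the gene-rich chromosome 25 (chr25:33875317-35992523 in cattle) cattle had 106 and 110 peaks and goats 49, 59 and 51 (−1.09 ± 0.07 (SE), adjusted p = 0.00012). A bin is a place in percent of length, so a shift of a block along the chromosome and a change in the number of peaks in it enter this measure alike, and which of them moved was not tested.

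**Figure D4:**
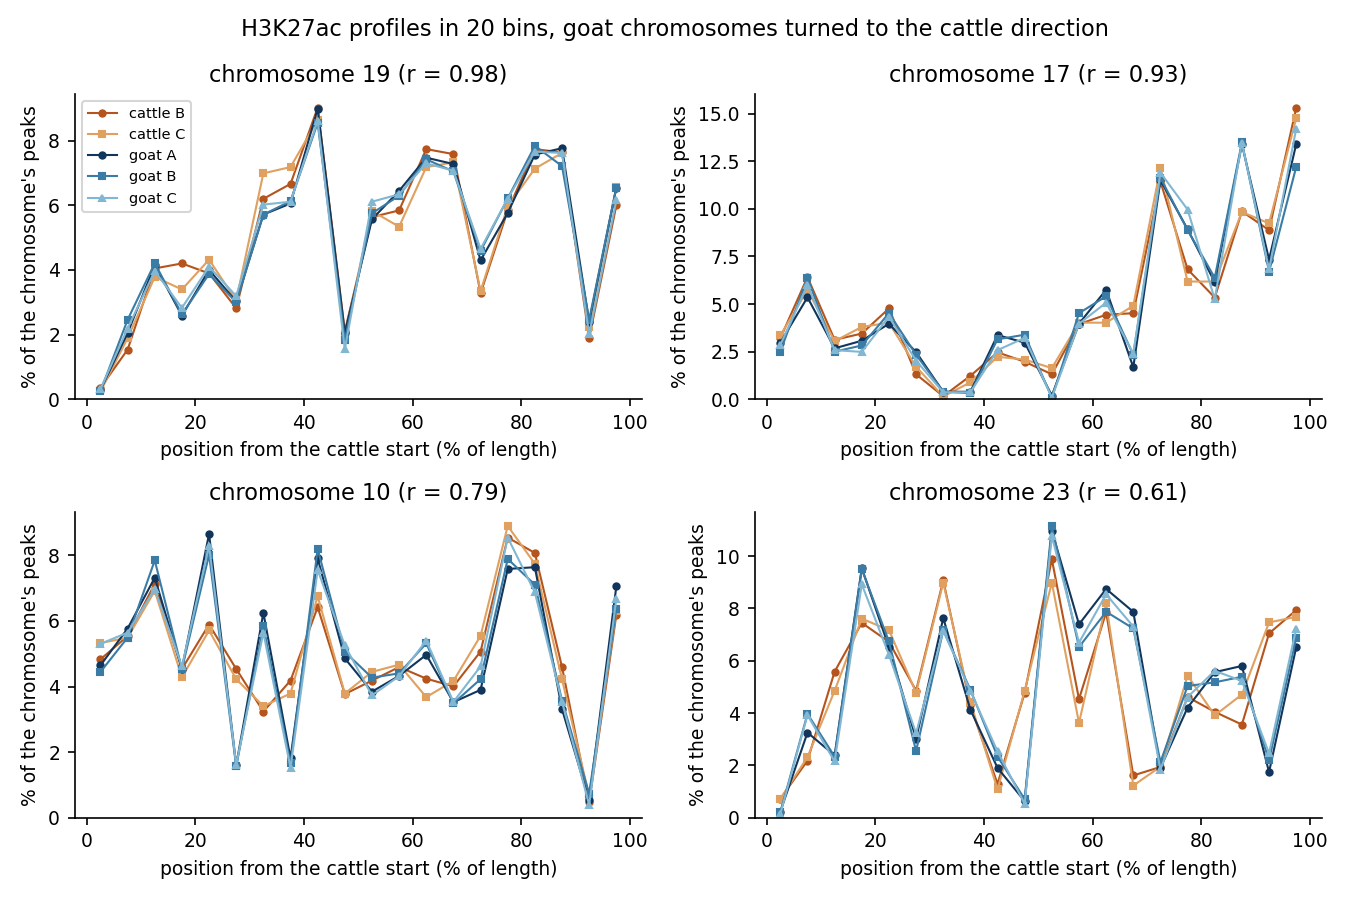
The percentage of a chromosome's H3K27ac peaks in 20 bins along the chromosome, from the cattle start, for each library on chromosomes 19, 17, 10 and 23, with goat chromosomes 10, 17 and 23 turned round. The 5 lines run together on chromosome 19 (r = 0.98), while on chromosome 10 (r = 0.79) and chromosome 23 (r = 0.61) the cattle lines and the goat lines part and the animals of a species stay together.

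The densest places of the genome were counted in windows of 1 Mb. A window held a median of 12.5 peaks in cattle and 14.3 in goats (means over the animals). In cattle, 213 of 2314 windows (9.20%) had no peak in any library, and in goats 130 of 2290 (5.68%). Cattle had fewer libraries than goats and fewer peaks per library on average, and both leave more windows empty. These percentages therefore cannot show a difference between the species. The 3 densest windows in cattle were chr7:43000001-44000000 (80 and 85 peaks), chr25:1000001-2000000 (79 and 85) and chr19:61000001-62000000 (77 and 86). In goats they were chr25:26000001-27000000 (88 to 98 peaks), chr5:56000001-57000000 (83 to 100) and chr25:1000001-2000000 (86 to 92).

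Most of these windows were dense at or near the same relative place in the other species. The window with the highest mean within 2 windows of the matching relative position was taken. For chromosome 7 this goat window had a mean of 82.3 peaks and was the densest of the 109 windows of that goat chromosome. The cattle window for goat chromosome 5 had a mean of 66.5 peaks and was the densest of 121. The start of chromosome 25 was the densest window of that chromosome in cattle (82 peaks) and the second in goats (88.7 peaks). The exception was the window near the end of cattle chromosome 19, where goats had 57.3 peaks, the 11th highest of 63.

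The strongest peak that recurred in all animals of a species, by −log10 q, lay at a chromosome end in both species. In cattle it was chr15:84897650-84898200, 551 bp wide, with a fold enrichment over background of 31.2 to 31.6, and it ended 59.1 kb before the end of the last peak of the chromosome. In goats it was chr19:3086-4064, 979 bp wide, with a fold enrichment of 10.8 to 11.6, and it began 3.09 kb from the first base. By fold enrichment neither was the strongest, as the highest values were 35.6 and 36.6 in cattle B and C and 24.9, 26.6 and 28.7 in goats A, B and C. By −log10 q both ranked first in each library of their species. Both were overlapped by an H3K4me3 peak, over 551 bp in cattle and over 966 to 967 bp in goats. The place of a gene at these peaks was not analysed here.

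The fourth comparison divided the H3K27ac peaks by the promoter mark. A peak was counted as without H3K4me3 where no H3K4me3 peak of the same animal overlapped it by 1 bp. Over the 27 autosomes these peaks made up 52.9% and 55.3% in cattle and 49.6%, 51.0% and 48.3% in goats. The goat values lay below both cattle by 4.49 percentage points on average (exact permutation test, p = 0.1, the smallest possible). The H3K4me3 lists of these animals held 22334 and 24024 peaks on the 27 autosomes in cattle and 22219, 25453 and 25944 in goats, and the part of these numbers in the difference was not tested.

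The goat mean was lower on 27 of 27 chromosomes, and 19 (70.4%) were called lower and 0 higher (limma). Values of the chromosomes of a library move together. For a measure with such a library-wide shift, here and for width, the p-values are therefore too small. Those for shares carry the limit given with them. The largest drops were found on chromosomes 23, 25 and 18. On chromosome 23 the percentage was 50% and 51.9% in cattle and 43.0%, 43.5% and 40.8% in goats (−8.51 ± 1.52 points (SE), limma, adjusted p = 7.45e-06). On chromosome 25 it was 45.2% and 44.5% in cattle and 36.5%, 38.2% and 35.4% in goats (−8.18 points, adjusted p = 9.12e-06), and on chromosome 18 it was 43.6% and 46.1% in cattle and 37.5%, 37.6% and 36.4% in goats (−7.68 points, adjusted p = 2.25e-05). In all 3 no goat reached a cattle value. They were called in each of the 11 alternative settings. The smallest differences, −0.55, −1.07 and −1.13 points on chromosomes 13, 10 and 1, did not pass the test. Leaving out single animals turned the sign on each of them, so the lower mean on all chromosomes rests on these animals. Without cattle C the count of calls dropped to 10, and with the 20000 strongest peaks of each library it was 26, with a median of −8.09 points against −4.47 with all peaks.

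Set relative to the value of its own library over the 27 autosomes, which takes the library-wide shift out, the percentage was called on 12 of 27 chromosomes (44.4%), 5 higher and 7 lower in goats. The excess over the library value on chromosome 13 was 0.28 and −0.33 points in cattle and 2.53, 3.93 and 5.28 in goats (3.94 ± 0.87 (SE), limma, adjusted p = 0.000602). Chromosomes 10 (3.42 points), 1 (3.36), 27 (2.70) and 12 (2.32) were also higher. Chromosome 23 was −2.94 and −3.44 points in cattle and −6.62, −7.51 and −7.48 in goats (−4.02 ± 0.84 (SE), adjusted p = 0.000471). Chromosomes 25 (−3.69), 18 (−3.20), 17 (−2.45), 29 (−2.30), 21 (−2.30) and 28 (−2.24) were lower as well. In both species peaks without H3K4me3 made up more of the sparse chromosomes, with an r between density and this percentage of −0.80 in cattle and −0.82 in goats (n = 27 chromosomes, as a description). The range of means ran from 44.8% on chromosome 18 to 63.2% on chromosome 20 in cattle, and from 36.7% on chromosome 25 to 59.7% on chromosome 20 in goats.

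**Figure D5:**
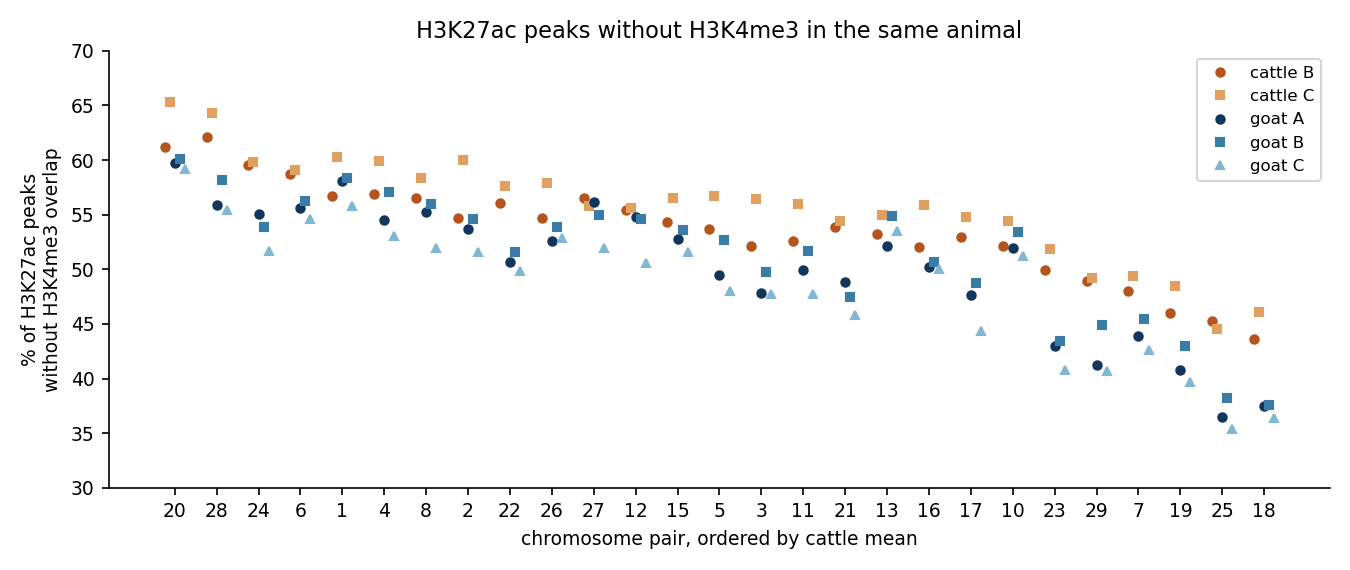
The percentage of H3K27ac peaks that no H3K4me3 peak of the same animal overlapped, for each library on the 27 chromosome pairs, ordered by the cattle mean (the axis starts at 30%). Goats lay below both cattle on 22 pairs, with the widest gaps on chromosomes 23, 25 and 18 at the right.

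The next comparison asked whether the species difference in chromosome share was the same for both marks. For each animal the log2 share of H3K4me3 peaks was subtracted from that of H3K27ac peaks, so that the test bears on the marks of the same liver. The difference between species was called on 14 of 27 chromosomes (51.9%, limma), 6 with H3K27ac higher relative to H3K4me3 in goats and 8 with it lower. On chromosome 13 the value was −0.0062 and 0.0027 in cattle and 0.10, 0.13 and 0.14 in goats (0.13 ± 0.03 (SE), limma, adjusted p = 0.000302). Chromosomes 1 (0.12, adjusted p = 0.000438) and 10 (0.10, adjusted p = 0.0013) followed. On chromosome 25 it was −0.05 and −0.15 in cattle and −0.24, −0.25 and −0.17 in goats (−0.12 ± 0.03 (SE), adjusted p = 0.000438), and the groups did not overlap, but the call was lost without cattle B (−0.07, adjusted p = 0.0848). Chromosomes 24 (−0.11, adjusted p = 0.000893) and 18 (−0.10, adjusted p = 0.0032) were lower too.

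Chromosome 17 was lower in goats in both marks, by −0.27 for H3K4me3 and −0.34 for H3K27ac. Chromosome 12 was similar in both, at −0.11 and −0.09. Across the 27 chromosomes the sign of the difference was the same in both marks on 12. The differences of the marks, from the same animals, had an r of 0.61 across the 27 chromosomes and 0.11 without chromosome 17 (n = 26), as a description. The 3 chromosomes with the largest gain relative to H3K4me3 were also those on which the percentage of peaks without H3K4me3 rose most relative to the library, which uses the same lists. Without goat B 7 chromosomes were called, and without cattle B or goat A 9 each. The goat H3K4me3 libraries had 7360 to 10984 peaks outside the 29 autosomes, against 1160 and 1196 in cattle C and B, and the part of these in the H3K4me3 shares was not tested.

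The median peak width of each goat was below that of both cattle when all called peaks were taken. Over the 27 autosomes it was 495 and 520 bp in cattle and 484, 478 and 478 bp in goats (−0.08 on the log2 scale, exact permutation test, p = 0.1, the smallest possible). With the 20000 strongest peaks of each library the difference was −0.02 (exact permutation test, p = 0.8), with peaks within 500 bp merged it was −0.02 (p = 1), and in both settings 0 of 27 chromosomes were called (limma, also 0 at an unadjusted p under 0.05). With all peaks the goat mean was lower on 27 of 27 chromosomes, 9 were called (33.3%, limma, all narrower), and 17 had no overlap between the species. On chromosome 25 the medians were 523 and 572 bp in cattle and 505, 495 and 491 bp in goats (−0.14 ± 0.04 (SE), limma, adjusted p = 0.0106). Chromosome 21 followed with 508.5 and 528.5 bp in cattle and 489, 475 and 468 bp in goats (−0.12, adjusted p = 0.02), and chromosome 1 with 500 and 519 bp against 470.5, 470 and 468 bp (−0.12, adjusted p = 0.02). The smallest differences were on chromosomes 26 (−0.01), 24 (−0.05) and 2 (−0.05), which were not called. Set relative to the library median, 0 of 27 were called (3 at an unadjusted p under 0.05, limma). The calls also rested on single animals, with 0 called without cattle C, goat B or goat C, 3 without goat A and 26 without cattle B.

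The strength of peaks was compared as the median fold enrichment of a chromosome over the median of its library. The values lay between 0.93 and 1.06 of the library median in all 5 libraries, and 6 of 27 chromosomes were called (22.2%, limma). Goats were higher on chromosome 23, with 0.964 and 0.966 in cattle and 1.0 in each goat (0.05 ± 0.01 on the log2 scale (SE), limma, adjusted p = 0.000477). On chromosome 28 the values were 0.934 and 0.938 in cattle and 0.957, 0.964 and 0.986 in goats (0.05 ± 0.01 (SE), adjusted p = 0.000695). Goats were lower on chromosome 25, with 1.03 and 1.06 in cattle and 1.01, 1.02 and 1.02 in goats (−0.04 ± 0.01 (SE), adjusted p = 0.00528), and on chromosomes 26 (−0.04, adjusted p = 0.0123), 15 (−0.04, adjusted p = 0.0143) and 13 (−0.03, adjusted p = 0.0344). On chromosome 24 the difference was 0.03 (adjusted p = 0.0576). Without goat B 1 chromosome was called, that being chromosome 23, and without goat A 3. Chromosome 25 lost its call without cattle C (−0.02, adjusted p = 0.195), goat A or goat B, chromosome 26 without any animal but cattle C, and chromosome 15 without cattle C (adjusted p = 0.0991) or goat B (0.139).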

How the data were processed

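The data are peak lists from ChIP-seq of H3K27ac in the liver of 2 cattle and 3 goats, with the H3K4me3 lists of the same animals (11 lists with that of cattle A, which entered only the chromosome lengths and the H3K4me3 profile that set directions; the sheep lists were only counted and the inputs not used). Per the labels and the study's methods, reads were trimmed by the authors (Trim Galore 0.4.0), checked with FastQC 0.11.2, and aligned with BWA 0.7.17. Low-quality alignments and duplicates (Picard 2.25.0) were removed, reads were subsampled to a common number per library, and peaks were called in each library with MACS2 2.1.1 at a q of 0.01. The build was ARS-UCD1.2 in cattle and, by the study's methods, ARS1 in goats, although the labels name only ARS-UCD1.2. Replicates are separate animals. The methods then intersect the replicates, whereas the lists used here are 1 per animal. Whether the input libraries served as background, and whether these lists come from the subsampled reads, is not given in the sources used here. The lists themselves hold no read numbers.

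The deposited lists give positions, a fold enrichment (a ratio to background) and the q-value as −log10 from the authors' peak caller, used here to rank, filter or describe peaks. Several summits can lie in 1 called interval and are then listed apart. Such entries were counted as a single peak, keeping their maximum fold and −log10 q. Neither build's genome nor its annotation was used here. The length of a chromosome is the end of its last peak in any list of the species. Genes and sequences were not analysed here.

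Species were compared with limma 3.58.1 (R 4.3.3; two-sided moderated tests over the 27 pairs or over the bins, Benjamini-Hochberg adjustment, threshold 0.05) on log2 share, peaks per Mb, median width and relative fold enrichment, and on the percentage of peaks without H3K4me3. Bin counts had 0.5 added before the log2. Totals were compared by a two-sided exact permutation test over the libraries. Calculations used Python 3.11.15 with numpy 2.4.6 and pandas 2.3.3, and figures matplotlib 3.10.9. The scripts were tested on simulated data. The chromosomes, lists and tests were chosen with earlier results of these data known. Values were given for the 4 highest and 4 lowest differences in share and density, the 3 highest and 3 lowest in the other measures, chromosomes 19, 25, 12, 24, 6 and 23 in share and density, the 3 highest and 3 lowest r, the 5 called bins with the smallest p each way, the 3 densest windows and the strongest recurring peak of each species. Animal letters join the marks of a liver but do not pair cattle with goats. Alternatives were a −log10 q of at least 5, the 20000 strongest peaks per library, peaks within 500 bp merged, every summit counted, another denominator, length, width summary, overlap rule or bin number, no bin filter, no turning of goat chromosomes, the letter as a block and leaving out each animal. Values relative to the library, cutting pairs to a common length and r over 1 Mb windows were added after the data were seen.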

Additional observations from a re-analysis of the deposited data

Results flagged for a closer look

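The species difference in chromosome share differed between H3K27ac and H3K4me3 on 14 of 27 chromosomes, by a test of the difference itself within the same animals (limma, adjusted p under 0.05). In log2 units, goat minus cattle and H3K27ac minus H3K4me3, the values above 0 were 0.13 on chromosome 13, 0.12 on chromosome 1, 0.10 on chromosome 10, 0.076 on chromosome 16, 0.074 on chromosome 15 and 0.068 on chromosome 7. Here every goat lay above both cattle. The values below 0 were −0.12 on chromosome 25, −0.11 on chromosome 24, −0.10 on chromosome 18, −0.092 on chromosome 23, −0.079 on chromosome 22, −0.072 on chromosome 21, −0.070 on chromosome 29 and −0.063 on chromosome 17. On these every goat lay below both cattle, except on chromosome 29, where the species overlapped. With the animal letter as a block 0 of 27 passed the threshold (9 at an unadjusted p under 0.05). Without goat B 7 of 27 were called and without goat A 9, so part of the calls rested on single animals. Groups of 2 and 3 libraries were too small to tell an outlying sample from the spread between animals.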

How the results depend on the processing

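The lower share of chromosome 17 in goats, the lower percentages without H3K4me3 on chromosomes 18, 23 and 25 and the 8 named bins that both species brought into the test passed the test under every alternative that gave them a value. Results that turned, and counts that moved by over 1.5 times, are given by setting and, unless stated, the cause was not tested. Animal letters do not pair cattle with goats, so the fit with the letter as a replicate block, which leaves few degrees of freedom, serves only as an alternative. Deviations of log2 share from the group mean had an r of −0.22 between cattle B and goat B and −0.13 between cattle C and goat C. The fit with the block called 3 shares, 0 densities, 0 widths, 0 fold enrichments, 6 percentages without H3K4me3, 0 mark differences and 154 bins (limma; at an unadjusted p under 0.05 there were 1 density, 10 widths, 5 fold enrichments and 9 mark differences), and turned the width of chromosome 26 (0.017) and the percentage of chromosome 13 (0.14 points).

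With the 20000 strongest peaks per library, 5 shares, 8 densities, 0 widths, 5 mark differences, 9 fold enrichments (3 of them among the 6 called with all peaks) and 26 percentages without H3K4me3 (median −8.09 points, against −4.47 with all peaks) were called, the covered length turned (−0.0080 in log2), and so did the share of chromosome 28 (0.0028), the density of chromosomes 12 (−0.16), 25 (−0.10) and 24 (−0.032) and the width of chromosomes 21 (0.0014), 1 (0.021), 26 (0.028) and 24 (0.016); 0 widths passed at an unadjusted p under 0.05 either. With a −log10 q of at least 5, 3 widths and 10 percentages were called, and the share of chromosome 19 (−0.0061) and the width of chromosome 26 (0.013) turned. Merging peaks within 500 bp left 0 widths, also 0 at an unadjusted p under 0.05, with chromosomes 1 (0.018) and 2 (0.039) turned. Counting every summit turned the share of chromosome 19 (−0.0056), and shares of all sequences turned chromosomes 19 (−0.018) and 6 (−0.0025). With 10 bins 122 bins were called and the median r was 0.96, with 40 bins 476 and 0.86, as the number of bins tested changed. Without turning goat chromosomes 338 bins were called.

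Relative to the library, 0 widths were called (3 at an unadjusted p under 0.05), with chromosomes 26 (0.073), 24 (0.035) and 2 (0.026) turned, and 12 percentages, with chromosomes 13 (3.94 points), 10 (3.42) and 1 (3.36) turned, which follows from taking out the library-wide shift. Cut to a common length from the cattle start, the share of chromosome 23 was 0.0089.

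Leaving out 1 animal at a time, between 3 and 7 shares, 0 and 26 widths, 1 and 9 fold enrichments, 10 and 21 percentages, 7 and 12 mark differences and 145 and 201 bins were called. The covered length ranged from −0.044 to 0.18. The share of chromosome 19 ranged from −0.024 to 0.045, and the density from −0.046 to 0.11 on chromosome 12, −0.0021 to 0.10 on chromosome 25 and −0.0093 to 0.15 on chromosome 28. The width of chromosome 26 ranged from −0.020 to 0.017, and the percentage without H3K4me3 from −1.45 to 0.35 points on chromosome 13, −2.21 to 0.064 on chromosome 10 and −2.91 to 0.65 on chromosome 1. Where 1 cattle library is left, it is assumed to vary like the goats. Depth is not in the lists, and 2 cattle set the limit for small differences.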
